A study of Mus musculus with 12 samples.

Results

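The hypoxia and glycolysis genes are 37 mouse genes that code for glucose and lactate transporters, glycolytic enzymes and targets of the hypoxia-inducible factor Hif1a. Of these, 34 had a probe set annotated to no other gene, out of 19938 genes measured in this way, and all 34 passed the filter on low signal that left 15950 genes to test. Gpi1, Eno1 and Gapdh had only probe sets shared with other genes and are not analysed here. Where a gene had several probe sets of its own, the brightest was taken.

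Cells sense oxygen through prolyl hydroxylases that mark Hif1a for degradation. When oxygen is short, Hif1a is stabilised, pairs with Arnt and binds promoters that hold the core letters ACGTG or GCGTG. Its targets carry glucose in, break it down to lactate, slow the entry of pyruvate into mitochondria, modify collagen and signal for blood vessels. Embryoid bodies are balls of cells grown from embryonic stem cells in suspension, and as they grow their inner cells lie farther from the oxygen in the medium. In bulk RNA, fewer cells of a type and less RNA per cell cannot be told apart.

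The embryoid bodies came from A2lox mouse embryonic stem cells of the 129P2/OlaHsd background, which carry transgenes switched on by doxycycline (dox) at 0.5 µg/ml. In the knockdown line, dox from day 0 induced miRNAs against Geminin (Gmnn), a protein that restrains DNA replication licensing, and 3 dox-treated and 3 untreated samples were collected on day 4. In the overexpression line, dox from day 3 induced Gmnn. Replicate 3 of that line, a dox-treated and an untreated sample, was collected on day 4, and replicates 1 and 2, 2 dox-treated and 2 untreated samples, on day 5. Undifferentiated cells were kept on irradiated feeder fibroblasts, which were removed before embryoid bodies were formed. The labels do not say whether a line is 1 clone, or whether replicate samples were grown apart. The p-values therefore cover the spread among these 12 samples, which may be technical.

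Each sample was measured on 1 Affymetrix array, and the mean deposited signal of an array lay between 677 and 697. On the log2 scale, Gmnn was at 9.66, 9.74 and 9.63 in the dox-treated knockdown arrays (replicates 1 to 3), against 10.33, 10.15 and 10.05 in the untreated ones. It was at 11.04, 11.38 and 10.83 in the dox-treated overexpression arrays (day 4 replicate 3, then day 5 replicates 1 and 2), against 10.35, 10.29 and 10.15 in the untreated ones. Both directions are those the labels give. All values below follow the same order of replicates and are log2 signals after quantile normalization, or differences between them. With the number of arrays as the limit on precision, a gene was called at a Benjamini-Hochberg adjusted p under 0.05 in a limma fit over all 15950 genes.

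Most of the hypoxia and glycolysis genes shared a direction within each pair of dox-treated and untreated arrays, but that direction differed between pairs of the same line. Within pairs of arrays of equal replicate number, 23 of the 34 genes were higher with dox in knockdown replicate 1, 9 in replicate 2 and 27 in replicate 3. In the overexpression line, 8 were higher with dox in the day 4 pair, 28 in day 5 replicate 1 and 2 in day 5 replicate 2. Over all tested genes the shares higher with dox were 51.8%, 53.7%, 54.9%, 57.5%, 50.2% and 55.3% in the same order. The median log2 difference over the 34 genes was 0.13, -0.14 and 0.12 in the knockdown pairs, and -0.12, 0.14 and -0.29 in the overexpression pairs. It lay between 0.00 and 0.03 over all genes. With each array's median subtracted in place of quantile normalization, the count in overexpression day 5 replicate 1 was 18 of 34 in place of 28. That scaling moved the median difference of all genes in this pair to -0.08.

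**Figure D1:**
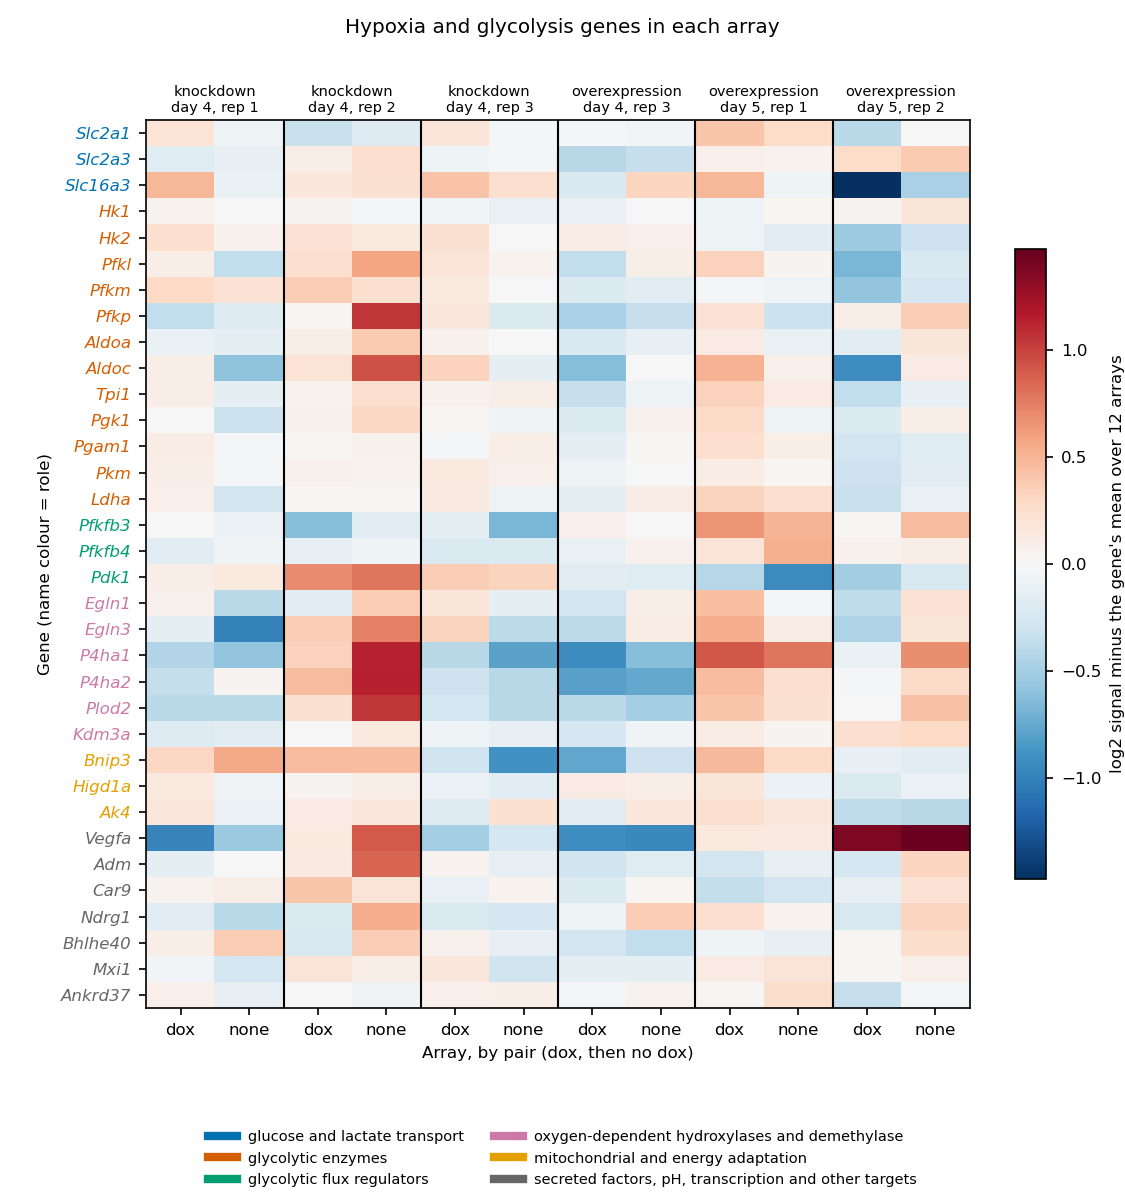
Log2 signal of each of the 34 genes (rows, name colour by role) in each of the 12 arrays (columns), as the difference from the gene's mean over all arrays, on the colour scale at the right. Columns run by pair, with the dox-treated array left of the untreated one. The untreated array of knockdown replicate 2 is red over most glycolytic enzymes and hydroxylases, and the dox-treated array of overexpression day 5 replicate 2 is blue over most of the same rows.

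**Figure D2:**
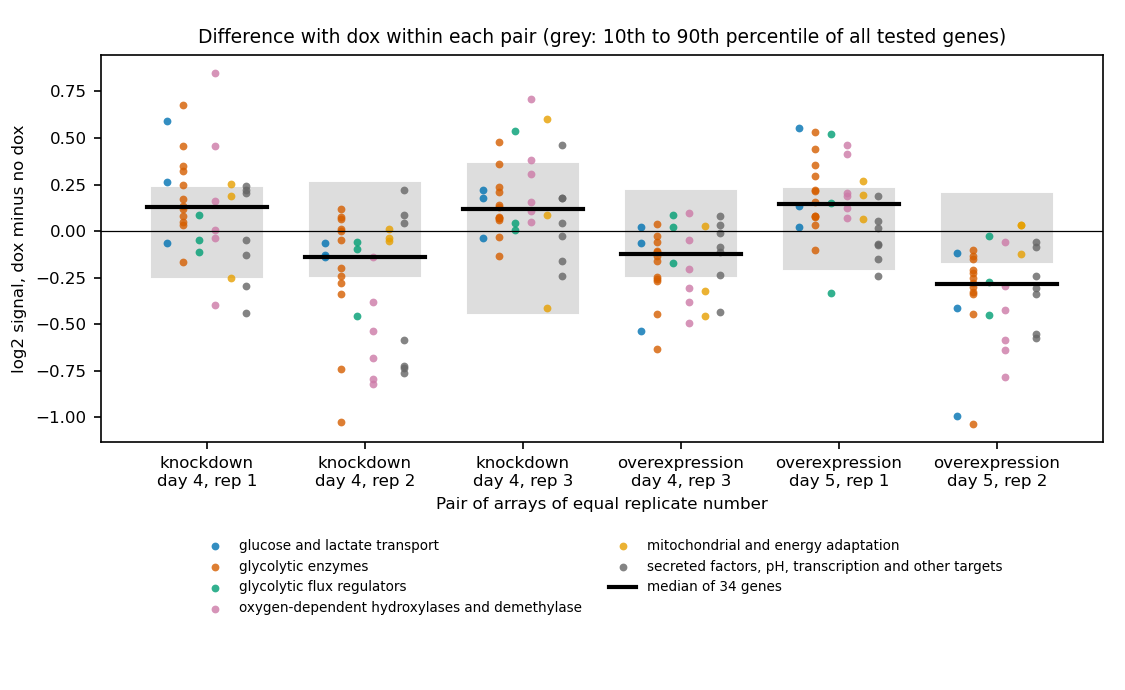
Log2 signal with dox minus without dox (vertical axis) for each of the 34 genes within each pair of arrays of equal replicate number (horizontal axis). Points are genes coloured by role, black bars are the medians of the 34 genes, and grey boxes span the 10th to 90th percentile of all tested genes. The medians lie above 0 in 3 pairs and below 0 in 3 pairs, with pairs of each line on both sides.

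Of the 34 genes, 9 took the majority direction in all 6 pairs (26.5%), against 1.23% of all tested genes, and 21 took it in 5 or 6 pairs, against 8.44%. The majority directions were set by these genes themselves, so the counts are a description with no test. The 9 were the monocarboxylate exporter Slc16a3, the enzymes Pfkl, Aldoa, Aldoc and Pgk1, the hydroxylases Egln1, Egln3 and P4ha1, and Ndrg1, which hypoxia is known to induce. The promoters of 5 of them are shown because each of these genes has a single annotated promoter that holds the ACGTG core before the start site. A sixth, that of Bnip3, is shown because its 2 probe sets gave different answers. The single annotated promoter of Pfkl held no ACGTG core and is not shown. Sequences are from RefSeq (GRCm38.p6), each a stretch of 100 bases upstream of the transcript's start, 5′ to 3′ on the gene's strand. The core is in capitals, written ACGTG or, where it lies on the opposite strand, CACGT. The stretches lie at chr11:120948967-120949066 (plus strand) for Slc16a3, chrX:106186911-106187010 (plus strand) for Pgk1, chr8:124949271-124949370 (minus strand) for Egln1, chr12:54204025-54204124 (minus strand) for Egln3, chr10:59323196-59323295 (plus strand) for P4ha1 and chr7:138909563-138909662 (minus strand) for Bnip3.
Slc16a3: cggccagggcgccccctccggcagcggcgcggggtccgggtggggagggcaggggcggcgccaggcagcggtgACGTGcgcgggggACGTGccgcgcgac
Pgk1: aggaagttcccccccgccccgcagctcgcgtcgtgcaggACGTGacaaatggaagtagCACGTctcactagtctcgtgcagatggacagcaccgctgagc
Egln1: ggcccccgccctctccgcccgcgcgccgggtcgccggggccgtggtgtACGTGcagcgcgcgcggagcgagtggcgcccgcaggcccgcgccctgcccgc
Egln3: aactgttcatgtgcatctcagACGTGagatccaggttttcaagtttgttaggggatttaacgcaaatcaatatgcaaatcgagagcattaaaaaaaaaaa
P4ha1: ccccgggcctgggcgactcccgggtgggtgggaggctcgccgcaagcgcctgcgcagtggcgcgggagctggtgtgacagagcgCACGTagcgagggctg
Bnip3: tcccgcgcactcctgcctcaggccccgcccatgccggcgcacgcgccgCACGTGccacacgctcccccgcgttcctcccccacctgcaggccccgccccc
Slc16a3 holds the core at 27 and 14 bases before the start, Pgk1 at 150 and 131, Egln1 at 68, Egln3 at 229 and P4ha1 at 16. In Bnip3 the capitals are the 6 letters CACGTG, at 108 bases before the start, which hold the core on both strands.

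Promoter windows of 300 bases, 250 before to 50 after each start, were listed for 30 of the 34 genes, 49 windows in all. The letters ACGTG were searched on both strands. They occurred in a window of 23 of the 30 genes (76.7%), against 21.8% of 27025 mouse genes. Of 21 other Hif targets with a window, 11 held them (52.4%), and of 19 respiratory chain genes, 4 did (21.1%). The letters GCGTG occurred in 21 of the 30 genes (70%), against 35.2% of all. Of the 8 listed genes that took the majority direction in all 6 pairs, 7 held ACGTG and 4 held GCGTG. Of the 22 other listed genes, 16 held ACGTG and 17 held GCGTG. Taking each gene's window richest in G and C, the median G and C content was 65.8%, against 53.3% over all genes, and 64.7% for the other Hif targets and 59.0% for the respiratory chain, so base composition moves with these counts and its part was not tested. A gene was counted if any of its windows held the letters. The 30 genes had 49 windows, the 27025 had 32851 and the 19 respiratory chain genes had 19. The 30 genes thus had more windows per gene than either, and the part of this in the counts was not tested. The windows of 5 of the 30 genes held CACGTG. A match is a run of letters in a window and says nothing of binding. Slc2a3, Ndrg1, Bhlhe40 and Plod2 were not listed.

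Other Hif targets are genes outside the 37, which did not set the majority directions. The list was chosen with earlier results of these data known, so its counts too are a description with no test. Of 30 tested, 9 took the majority directions in all 6 pairs (30.0%), against 1.23% of all tested genes. In 5 or 6 pairs 12 did (40%), against 8.44%. Levels were higher with dox for 21, 9 and 23 of the 30 genes in the knockdown pairs, and for 11, 21 and 8 in the overexpression pairs. Ccng2, a cyclin-related gene of quiescent cells, differed by 0.37, -1.10 and 0.58 with dox in the knockdown pairs and by -0.50, 0.06 and -0.67 in the overexpression pairs. Ero1a, an oxidase that forms disulphide bonds in the endoplasmic reticulum, differed by 0.19, -0.81 and 0.24, and by -0.36, 0.28 and -0.48. Ddit4, a stress-induced inhibitor of mTORC1, differed by 0.24, -0.76 and 0.24, and by -0.29, 0.33 and -0.25. The other 6 were Bnip3l, Gys1, Irs2, Kdm4b, Ndufa4l2 and Zfp395, among which Irs2 differed by 0.16 or less in every pair. With each array's median subtracted, 5 of the 30 took the majority direction in all 6 pairs, and 10 of the 34 hypoxia and glycolysis genes. The 1.23% of all genes holds for quantile normalization, and the share on this other scaling is not given here.

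The other lists near this pathway gave lower counts. None of the 13 genes for Hif subunits and their degradation, the 16 other glycolysis and transport isoforms, the 7 pentose phosphate genes, the 26 genes of pyruvate dehydrogenase and the citric acid cycle, the 28 respiratory chain genes or the 8 integrated stress response genes took the majority direction in all 6 pairs. In 5 or 6 pairs it was taken by 1, 1, 0, 4, 4 and 0 of them. Hif1a itself was at 11.50, 11.25 and 11.37 with dox and 11.45, 11.22 and 11.23 without in the knockdown line. Overexpression arrays of the gene stood at 11.43, 11.46 and 11.46 with dox and 11.46, 11.59 and 11.50 without. Its transcript thus stayed within a log2 range of 11.22 to 11.59 over all 12 arrays. The known control of this pathway acts on the protein, which was not measured here. Epas1, a Hif subunit of the same list picked after its values were seen, varied more. Its knockdown arrays were at 8.29, 9.88 and 9.03 with dox and 9.05, 10.06 and 8.94 without. Its overexpression arrays were at 8.49, 8.87 and 9.53 with dox and 8.05, 8.85 and 9.62 without.

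**Figure D3:**
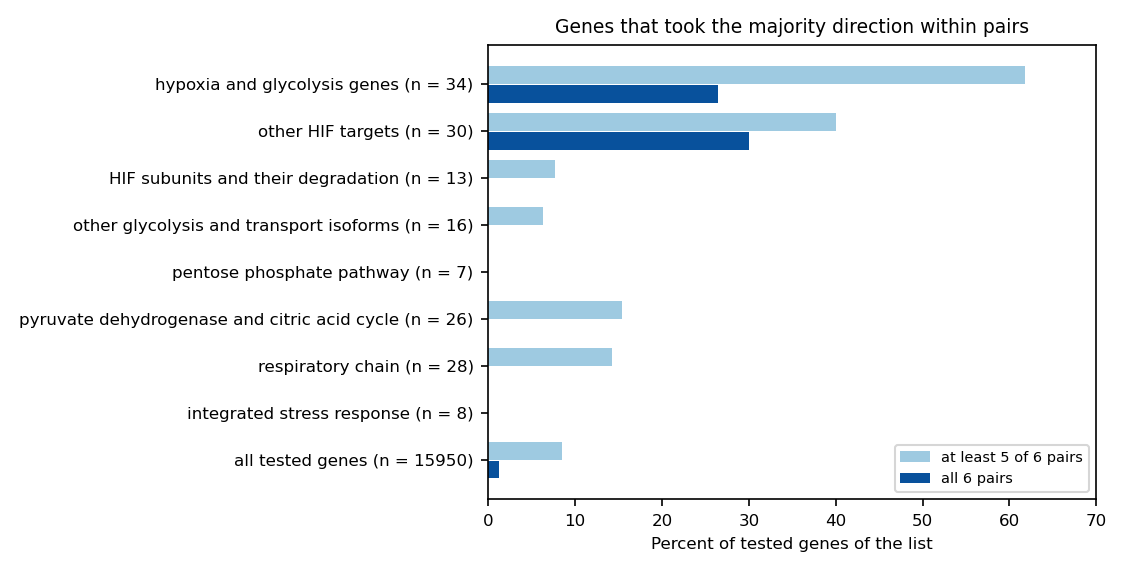
Percent of tested genes of each list (rows, with the number of genes) that took the majority direction of the 34 genes in all 6 pairs (dark bars) or in at least 5 of 6 pairs (light bars). The dark bars stand at 26.5% for the hypoxia and glycolysis genes, 30.0% for the other Hif targets, 1.23% for all tested genes and 0 for the lists between them.

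The comparison of dox with no dox in each line asks how the levels of these genes differ when Gmnn is lowered or raised. In the knockdown line 0 of 34 were called, against 0.00627% of all tested genes, and 0 had an unadjusted p under 0.05, against 3.76%. With Gmnn induced in the overexpression line 0 were called, against 0.00627% of all, and 0 had an unadjusted p under 0.05, against 0.934%. The dox effects of the lines differed for 0 of 34 by the interaction term, against 0% of all, with 0 against 2.13% at an unadjusted p under 0.05. Dox-treated arrays were on average higher for 19 of 34 genes in the knockdown line, where 52.7% of all genes were higher, with a median difference of 0.03. That median was -0.09 without the untreated array of replicate 1 and 0.13 without the untreated array of replicate 2. They were higher for 3 of 34 in the overexpression line, where 56.7% of all genes were higher, with a median of -0.08. Without the dox-treated array of day 5 replicate 2 that median turned to 0.04, and without that of day 5 replicate 1 it was -0.22. The 95% intervals, from this fit that takes no account of replicate number, were wide for the genes that varied most between replicates, such as -1.53 to 0.57 for Vegfa in the knockdown line, and these tests do not show that dox left the levels unchanged.

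The largest differences with dox in the knockdown line were 0.39 ± 0.38 for Egln3, 0.26 ± 0.12 for Mxi1, a Myc antagonist, and 0.23 ± 0.38 for Slc16a3 (log2 difference ± SE). On the lower side they were -0.48 ± 0.47 for Vegfa, -0.32 ± 0.35 for P4ha2 and -0.28 ± 0.31 for Pfkp. In limma's test their adjusted p was 0.965 or more, up to 0.968. In the overexpression line they were 0.09 ± 0.22 for Pdk1, 0.06 ± 0.12 for Higd1a and 0.04 ± 0.31 for Pfkp, and -0.41 ± 0.39 for Aldoc, -0.32 ± 0.38 for Slc16a3 and -0.32 ± 0.45 for P4ha1, all at an adjusted p of 1.00 in limma's test. Leaving out the untreated array of knockdown replicate 2 turned the knockdown difference of P4ha2 to 0.12 and that of Pfkp to 0.14. Leaving out the dox-treated array of overexpression day 5 replicate 2 turned that of Slc16a3 to 0.21.

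**Figure D4:**
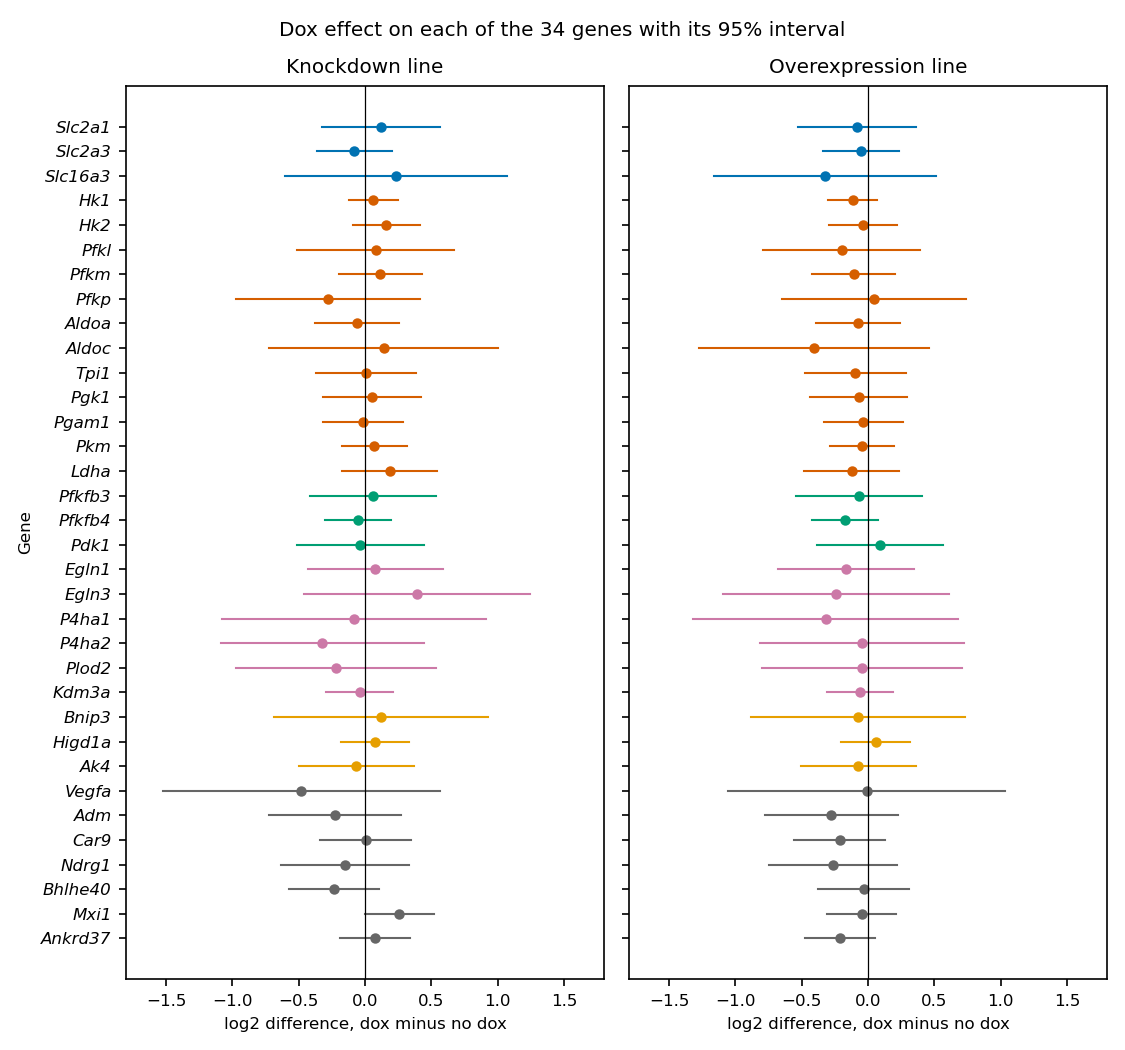
Log2 difference with dox minus without dox (horizontal axes) for each of the 34 genes (rows) in the knockdown line (left) and the overexpression line (right). Points are limma estimates coloured by role and bars are their 95% intervals. Every interval crosses 0, and the widest are those of Vegfa, P4ha1, Aldoc and Egln3.

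For 3 genes the dox-treated and untreated arrays of a line did not overlap. In the knockdown line Hk2, the hexokinase that hypoxia induces, was at 11.17, 11.15 and 11.17 with dox and 11.002, 11.08 and 10.93 without. Ldha, which turns pyruvate to lactate, was at 13.18, 13.12 and 13.23 with dox and 12.83, 13.12 and 13.02 without, and its arrays of replicate 2 both round to 13.12. These 2 of 34 had all 3 dox-treated arrays above all 3 untreated ones, against 4.97% of all genes, and 0 of 34 had them below, against 3.25%. The differences were 0.16 ± 0.12 and 0.19 ± 0.16, with a two-sided exact permutation p of 0.1 each, the smallest that 3 arrays against 3 can give. In the overexpression line Adm, a vasodilator peptide, was at 7.17, 7.19 and 7.21 with dox and 7.28, 7.34 and 7.78 without. It was 1 gene of 34 with all 3 dox-treated arrays below the untreated ones, against 1.84% of all genes, and 0 of 34 had them above, against 1.94%. Its difference was -0.28 ± 0.23, with an exact permutation p of 0.167 within days, also the smallest possible. Limma's adjusted p was 0.965 for Hk2 and Ldha and 1.00 for Adm.

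Among the transporters, Slc16a3, which exports lactate, carried the largest differences. It was at 11.64, 11.30 and 11.56 with dox and 11.05, 11.37 and 11.38 without in the knockdown line. The overexpression arrays read 10.92, 11.64 and 9.67 with dox and 11.46, 11.08 and 10.67 without. The dox-treated array of day 5 replicate 2 was the lowest of the 12, and the groups overlapped in both lines. Slc2a1, the basal glucose importer, was at 12.89, 12.37 and 12.88 with dox and 12.63, 12.50 and 12.66 without in the knockdown line and at 12.67, 13.09 and 12.29 with dox and 12.65, 12.96 and 12.70 without in the overexpression line. The high-affinity importer Slc2a3 varied little with dox, from -0.14 to 0.02 within pairs. Its level spanned 12.60 to 13.39 over the 12 arrays. It differed by 0.32 ± 0.08 between knockdown replicates 2 and 1 (adjusted p = 0.0512, limma) and by 0.27 ± 0.08 between overexpression replicates 2 and 1 (adjusted p = 0.0610), and neither passed.

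Of the 12 glycolytic enzymes measured, Aldoc, an aldolase, varied most within pairs. It was at 8.93, 9.04 and 9.18 with dox and 8.25, 9.78 and 8.70 without in the knockdown line. Its level in the overexpression line was 8.22, 9.35 and 7.93 with dox and 8.85, 8.91 and 8.97 without. Dox-treated arrays were higher in knockdown replicates 1 and 3 and overexpression day 5 replicate 1, and lower in the other 3 pairs, with differences between -1.04 and 0.68. Pgk1, which makes the first ATP of the pathway, took the same signs at smaller size. It was at 12.85, 12.91 and 12.88 with dox and 12.53, 13.15 and 12.80 without in the knockdown line and at 12.64, 13.13 and 12.65 with dox and 12.91, 12.78 and 12.95 without in the overexpression line. Its 2 further probe sets had identical values in all 12 arrays and so count as 1 measurement. They took the same signs, with differences within 0.04 of these.

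Pfkl, the liver-type phosphofructokinase, differed by 0.46, -0.34 and 0.13 with dox in the knockdown pairs, and by -0.44, 0.30 and -0.45 in the overexpression pairs. Aldoa, the main aldolase, differed by 0.03, -0.28 and 0.06 with dox in the knockdown pairs, and by -0.11, 0.22 and -0.34 in the overexpression pairs. Both took the majority direction in all 6 pairs. Pfkp, the platelet-type phosphofructokinase, was at 8.64, 9.03 and 9.15 with dox and 8.80, 10.05 and 8.79 without in the knockdown line, where the untreated array of replicate 2 was the highest of the 12. Tpi1, Pgam1, Pkm, Ldha, Pfkm and Pfkp took the majority direction in 5 pairs, and Hk1 and Hk2 in 4. Tpi1, Pgam1, Pkm and Pfkm differed by between -0.33 and 0.25 in every pair.

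**Figure D5:**
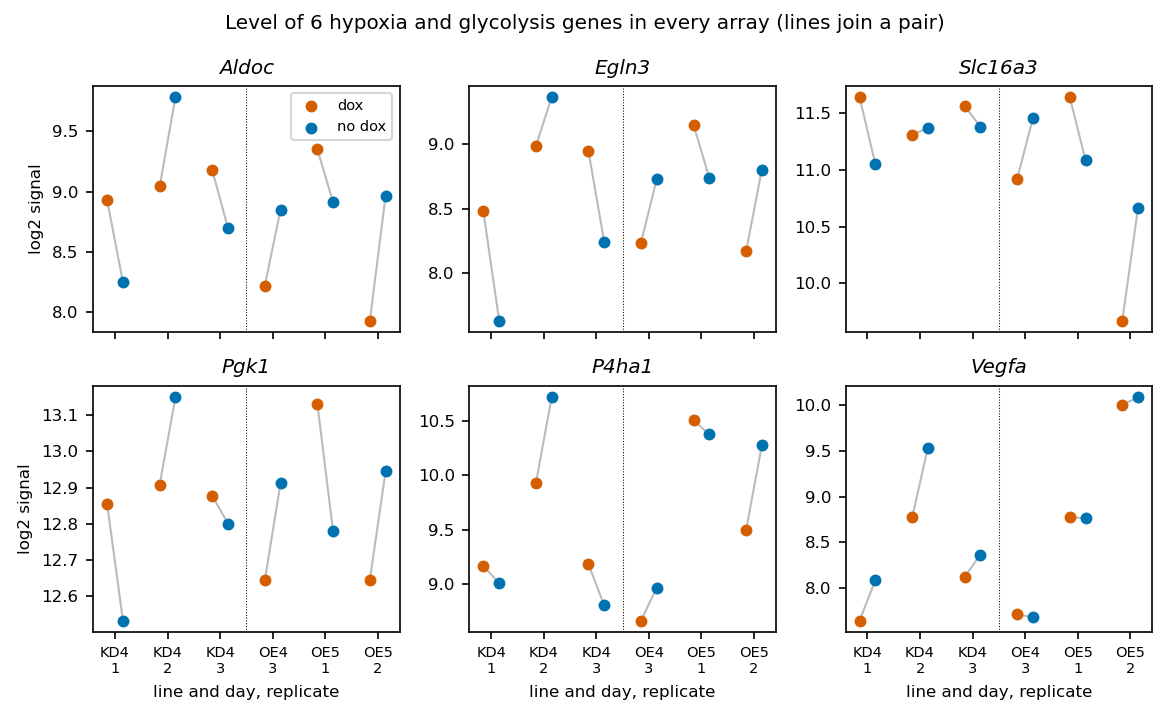
Log2 signal of 6 of the genes (panels) in every array. The horizontal axis gives the line and day (KD4, knockdown day 4; OE4 and OE5, overexpression day 4 and 5) over the replicate number. Orange points are dox-treated arrays, blue points untreated arrays, and grey lines join a pair. Aldoc, Egln3, Slc16a3, Pgk1 and P4ha1 slope alike within each pair, and Vegfa separates replicate 2 from replicate 1 in both lines.

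The regulators of glycolytic flux did not share 1 direction. Pfkfb3, which raises the allosteric activator of phosphofructokinase, was at 8.27, 7.64 and 8.13 with dox and 8.18, 8.10 and 7.59 without in the knockdown line. Its overexpression values were 8.34, 8.92 and 8.28 with dox and 8.26, 8.77 and 8.73 without. It took the majority direction in 5 pairs, the exception being the day 4 overexpression pair. Pdk1, a kinase that blocks pyruvate dehydrogenase, was at 10.41, 11.000 and 10.67 with dox and 10.45, 11.10 and 10.63 without in the knockdown line. In the overexpression line it was at 10.15, 9.89 and 9.80 with dox and 10.13, 9.37 and 10.07 without. It thus took the majority direction in 4 pairs, as did Pfkfb4.

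All 6 oxygen-dependent hydroxylases and demethylases took the majority direction in 5 or 6 pairs. Egln3, a Hif prolyl hydroxylase that is itself a Hif target, was at 8.48, 8.99 and 8.95 with dox and 7.63, 9.37 and 8.24 without in the knockdown line. Overexpression arrays of the gene stood at 8.24, 9.15 and 8.17 with dox and 8.73, 8.74 and 8.80 without. The dox-treated and untreated arrays overlapped in both lines. Egln1, the main Hif prolyl hydroxylase, differed by 0.46, -0.53 and 0.31 with dox in the knockdown pairs, and by -0.38, 0.46 and -0.58 in the overexpression pairs. P4ha1, the catalytic subunit of the collagen prolyl hydroxylase, was at 9.16, 9.93 and 9.18 with dox and 9.005, 10.72 and 8.80 without in the knockdown line. The overexpression arrays read 8.66, 10.50 and 9.49 with dox and 8.96, 10.38 and 10.28 without. Its levels were 9.49 or more in knockdown replicate 2 and the day 5 overexpression arrays and 9.18 or less in the rest. That split was drawn after the values were seen, and the gap from 9.49 to 9.93 inside the upper group is wider. P4ha2, its sister subunit, and Plod2, a collagen lysyl hydroxylase, are described with the replicates, and Kdm3a, a histone H3K9 demethylase, differed by between -0.20 and 0.07 within pairs.

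Bnip3, which drives the removal of mitochondria and has a core in its promoter, was measured by 2 probe sets that disagreed. On the brightest it was at 9.96, 10.12 and 9.36 with dox and 10.22, 10.11 and 8.76 without in the knockdown line and at 8.90, 10.14 and 9.54 with dox and 9.35, 9.94 and 9.50 without in the overexpression line, with the majority direction in 3 pairs. On the other probe set it was at 9.34, 9.75 and 9.80 with dox and 8.59, 10.75 and 9.08 without in the knockdown line. In the overexpression line that probe set read 8.29, 9.97 and 8.29 with dox and 9.43, 9.12 and 9.76 without. It differed by 0.75, -0.995 and 0.72 with dox in the knockdown pairs and by -1.14, 0.85 and -1.47 in the overexpression pairs, the majority direction in all 6. Positions of the probe sets were not used here, so which of them reads the Bnip3 transcript was not settled. Higd1a, a mitochondrial protein of hypoxia, differed on its brightest probe set by 0.19, -0.05 and 0.09 with dox in the knockdown pairs, and by 0.03, 0.27 and -0.12 in the overexpression pairs. On its other probe set the signs matched the majority in 3 pairs. Ak4, a mitochondrial adenylate kinase, took the majority direction in 4 pairs on its brightest probe set and in 3 on the other.

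Hk1, the housekeeping hexokinase, has the same limit. Its brightest probe set averaged 13.42 over the 12 arrays, within the 12.85 to 13.71 of 16 probe sets annotated to the ribosomal protein gene Rpl17 and Hk1 together, and its other probe set averaged 8.66. The brightest was at 13.47, 13.46 and 13.38 with dox and 13.42, 13.40 and 13.31 without in the knockdown line and at 13.31, 13.34 and 13.46 with dox and 13.42, 13.44 and 13.59 without in the overexpression line. It was thus higher with dox in all 3 knockdown pairs and lower in all 3 overexpression pairs. The other probe set was higher with dox in 2 of 3 pairs of each line.

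The secreted and other targets split. Ndrg1 was at 9.06, 9.005 and 9.01 with dox and 8.81, 9.74 and 8.96 without in the knockdown line and at 9.14, 9.45 and 8.97 with dox and 9.57, 9.26 and 9.52 without in the overexpression line. Vegfa, the growth factor for vessels, was at 7.65, 8.77 and 8.12 with dox and 8.09, 9.53 and 8.36 without in the knockdown line. Its level in the overexpression line was 7.71, 8.78 and 10.000 with dox and 7.68, 8.76 and 10.08 without. It was lower with dox in all 3 knockdown pairs, but its arrays differed more between replicates than between dox and no dox. Mxi1 was higher with dox in all 3 knockdown pairs, by 0.22, 0.09 and 0.46, and lower in all 3 overexpression pairs, at -0.01, -0.07 and -0.06. Car9, which buffers acid outside the cell, took the majority direction in 2 pairs, Ankrd37 in 3, and Adm, Mxi1 and Bhlhe40, a transcriptional repressor, in 4. Car9 lay between 6.67 and 7.43 in all 12 arrays, close above the filter of 6.46.

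Replicates were compared next, in a fit with a baseline for each line and replicate, where each side has 2 arrays, 1 with and 1 without dox. In knockdown replicate 2 against replicate 1, 3 of 34 genes were called higher and 0 lower (8.82%), against 7.55% of all tested genes. Vegfa rose by 1.29 ± 0.12 (adjusted p = 0.00395, limma), P4ha2 by 0.96 ± 0.19 (adjusted p = 0.0306) and Plod2 by 1.04 ± 0.24 (adjusted p = 0.0495). Of the 34, 28 were higher in replicate 2 (82.4%), against 48.3% of all genes, with a median of 0.23 against -0.01 over all genes. Without the untreated array of replicate 2 that median was 0.08. An unadjusted p under 0.05 was reached by 12 of 34, against 26.1%. P4ha1 at 1.24 ± 0.30 (adjusted p = 0.0526) and Egln3 at 1.12 ± 0.34 (adjusted p = 0.0907) did not pass. On the lower side were Pfkfb3 at -0.36 ± 0.23, Slc2a1 at -0.33 ± 0.15 and Bhlhe40 at -0.16 ± 0.17.

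P4ha2 was at 8.53, 9.35 and 8.57 with dox and 8.92, 10.02 and 8.46 without in the knockdown line, and both arrays of replicate 2 were above the other 4. Plod2 was at 9.51, 10.14 and 9.65 with dox and 9.51, 10.96 and 9.49 without, and again both arrays of replicate 2 were the highest. The untreated array of replicate 2 was higher than the dox-treated one for both genes. Without that array the difference was 0.69 for P4ha2 (adjusted p = 0.168) and 0.59 for Plod2 (adjusted p = 0.202). Without the dox-treated array of replicate 1, Vegfa's was 1.32 (adjusted p = 0.0555), and the count of called genes was 0.

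Markers moved with this contrast. The mean log2 level of 7 visceral endoderm markers was 8.63 with dox and 8.85 without in replicate 2, against 7.66 and 7.87 in replicate 1, and 7.71 and 8.20 in replicate 3. Of these 7, 6 were higher in replicate 2 than in replicate 1 and 3 were called. Cubn was at 11.61 with dox and 11.72 without in replicate 2, against 8.21 and 9.01 in replicate 1, and Sox7 at 9.40 and 10.30, against 7.59 and 7.95. Afp was at 7.20 and 7.45 in replicate 2, against 7.34 and 7.49 in replicate 1. The mean of 5 primitive streak markers was 8.41 with dox and 7.53 without in replicate 2, against 9.92 and 8.82 in replicate 1, and 9.50 and 9.23 in replicate 3. All 5 were lower in replicate 2 than in replicate 1 and 4 were called. All 8 integrated stress response genes were higher in replicate 2 than in replicate 1, and 4 of them were called. The part of these in the result was not tested.

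In knockdown replicate 3 against replicate 1, which shares the arrays of replicate 1 with the contrast above, 0 of 34 genes were called, against 0.0188% of all. An unadjusted p under 0.05 was reached by 2 of 34, against 15.7%. They were Vegfa at 0.38 ± 0.12 (adjusted p = 0.221, limma) and Bnip3 at -1.03 ± 0.22 (adjusted p = 0.129). Bnip3's other probe set gave 0.47. The next largest were Egln3 at 0.54 ± 0.34 and Aldoc at 0.35 ± 0.41 on the higher side, and Pfkfb3 at -0.37 ± 0.23 and Bhlhe40 at -0.26 ± 0.17 on the lower.

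In overexpression replicate 2 against replicate 1, all on day 5, 1 of 34 genes was called higher and 2 lower (8.82%), against 13.7% of all tested genes. Vegfa rose by 1.27 ± 0.12 (adjusted p = 0.00352, limma). Ldha, at -0.50 ± 0.12 (adjusted p = 0.0352), and Pgam1, a phosphoglycerate mutase, at -0.41 ± 0.11 (adjusted p = 0.0480), fell. Ldha was at 12.78 with dox and 12.99 without in replicate 2, against 13.43 and 13.34 in replicate 1. Pgam1 was at 12.16 and 12.27, against 12.70 and 12.54. Of the 34 genes, 24 were lower and 10 higher (29.4%) in replicate 2, against 50.3% of all genes higher, with a median of -0.28. That median was -0.06 with each array's median subtracted and -0.04 without the dox-treated array of replicate 1. Of the 34, 16 had an unadjusted p under 0.05, against 31.8%. Slc16a3, at -1.19 ± 0.33 (adjusted p = 0.0566), had the largest difference and did not pass, nor did Aldoc at -0.68 ± 0.41 and Pfkl at -0.64 ± 0.23. Car9 at 0.36 ± 0.11 and Pdk1 at 0.30 ± 0.17 were on the higher side.

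With each array's median subtracted, the median of all genes in this contrast was 0.12, and Ldha at -0.32 (adjusted p = 0.180) and Pgam1 at -0.23 (adjusted p = 0.305) were no longer called. Without the dox-treated array of replicate 1, the differences were -0.35 for Ldha (adjusted p = 0.269), -0.26 for Pgam1 (adjusted p = 0.333) and 1.30 for Vegfa (adjusted p = 0.0557), and 0 genes were called. The 8 integrated stress response genes were all called higher in replicate 2, with a median of 1.27. The mean level of 8 blood and endothelium markers was 8.16 with dox and 8.45 without in replicate 2, against 7.55 and 7.66 in replicate 1. All 7 of them above the filter, which Hbb-bh1 did not pass, were higher in replicate 2 and 3 were called. Pecam1 was at 8.54 with dox and 8.34 without in replicate 2, against 6.504 and 6.54 in replicate 1, while Tal1 was at 8.90 and 8.97, against 9.02 and 8.80. The mean of the 5 primitive streak markers was 9.81 with dox and 9.82 without in replicate 2, against 10.45 and 10.43 in replicate 1, with all 5 lower and 3 called. For 6 pluripotent markers the mean was 11.14 with dox and 10.93 without in replicate 2, against 10.91 and 10.69 in replicate 1. Esrrb, at 10.17 and 9.80 against 8.11 and 7.97, Zfp42 and Nanog were higher in replicate 2. Pou5f1, Klf4 and Tdgf1 were lower. The part of these in the result was not tested.

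Day 5 was compared with day 4 in the overexpression line, where day 4 is replicate 3 alone, so day and replicate cannot be told apart. Of 34 genes 0 were called, against 0.558% of all, and 6 had an unadjusted p under 0.05, against 14.2%. The largest were 1.71 ± 0.50 for Vegfa (adjusted p = 0.153, limma), 1.35 ± 0.48 for P4ha1 (adjusted p = 0.228) and 1.01 ± 0.37 for P4ha2 (adjusted p = 0.245). P4ha2 was at 9.33 and 8.86 with dox and 9.13 and 9.16 without on day 5, against 8.08 with dox and 8.13 without on day 4. The others were Slc2a3 at 0.57 ± 0.14, Kdm3a at 0.32 ± 0.12 and Hk2 at -0.36 ± 0.12. All 6 hydroxylases and demethylases were higher on day 5, with a median of 0.51, while 24 of 34 genes were higher (70.6%), against 49.8% of all genes, with a median of 0.16. Without the dox-treated array of day 5 replicate 1 the median over the 34 was -0.0043. Slc16a3 at -0.42 ± 0.40 and Pdk1 at -0.36 ± 0.23 were on the lower side. Without both arrays of knockdown replicate 2, which serve only the estimate of the spread here, 3 of the 34 were called. The share of all genes called in that fit is not given here. Of the 7 visceral endoderm markers, 5 were higher on day 5 and 0 were called. Their mean was 7.95 and 8.23 with dox and 8.06 and 8.21 without on day 5, against 7.57 with dox and 7.60 without on day 4. Sox17 was at 8.74 and 8.32 with dox and 9.19 and 8.48 without on day 5, against 6.91 with dox and 6.87 without on day 4. All 5 primitive streak markers were lower on day 5 and 0 were called. The part of these in the result was not tested.

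The knockdown line was compared with the overexpression line on day 4 by the untreated levels of the fit. The level of the knockdown line is the mean of its 3 untreated arrays, and that of the overexpression line rests on 1 pair of arrays and the line's dox effect. Of 34 genes 0 were called, against 0.307% of all, and 4 had an unadjusted p under 0.05, against 11.6%. They were P4ha2 at 1.01 ± 0.42 (adjusted p = 0.397, limma), Pdk1 at 0.63 ± 0.26, Bhlhe40 at 0.51 ± 0.19 and Slc2a3 at 0.38 ± 0.16. Vegfa at 0.96 ± 0.58 and Pfkp at 0.64 ± 0.38 were also higher, and Pfkfb3 at -0.38 ± 0.26, Ndrg1 at -0.31 ± 0.27 and Egln3 at -0.19 ± 0.47 lower. With the means of dox-treated and untreated arrays compared in place of the untreated levels, 6 arrays against 2, Egln3's difference was 0.12, P4ha2's 0.87, Vegfa's 0.72 and Pfkp's 0.49, and 0 of 34 were called. The 5 primitive streak markers were lower in the untreated knockdown line, with log2 differences from -3.16 to -1.08, and 1 was called. The part of these in the result was not tested.

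Over the 12 arrays the 34 genes had a median log2 range of 0.80, against 0.59 over all tested genes. The array with the highest mean over the 34 genes was the untreated array of knockdown replicate 2, at 10.51, and the lowest was the dox-treated array of overexpression day 4, at 9.85. The 3 untreated knockdown arrays alone, which share line, day and treatment, stood at 9.98, 10.51 and 9.99. They thus covered most of the span of all 12.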

How the data were processed

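Total RNA of 12 embryoid body samples (1 µg each) was labelled with biotin by Affymetrix's whole-transcript protocol and hybridised to 1 array each, per the labels. The deposited values are intensities for 35512 probe sets on a linear scale. How the authors summarised and normalised them is not given in the sources used here. Of these probe sets, 21789 are annotated to 1 gene on GEO's platform table, 1621 to several genes and 12102 are not named there. Only the first kind was used.

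From the deposited intensities, log2(intensity + 1) was quantile-normalised over all probe sets in limma 3.58.1 (R 4.3.3). The probe set with the highest mean was taken for each of 19938 genes, and genes below the 20th percentile (6.46 on the log2 scale) were left out. Dox effects, day and line were fitted with a baseline for each line and day and a dox effect for each line (7 residual degrees of freedom). Replicates were contrasted in a second fit with a baseline for each line and replicate (4 residual degrees of freedom). P-values were adjusted over all 15950 genes by Benjamini and Hochberg's method. Exact permutation tests were two-sided.

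The genes and lists were chosen with earlier results of these data known. Named for each contrast, other than the difference in dox effect between lines, are the called genes and the 3 largest differences in each direction. The genes behind a count are named for some counts only. Every gene of the 34 is accounted for. Of 180 entries in the other lists, 10 had no probe set of their own. Simulated data had 50 genes changed at each of 1.5-, 2-, 4- and 8-fold among 15950, with noise independent between genes. Of the 50 changed 2-fold, the fits called 46 for the knockdown dox effect, 42 for the overexpression dox effect and 22 for knockdown replicate 2 against 1. Unchanged genes called were 10, 8 and 4. The changed genes were drawn from all tested genes. The 34 genes varied more (median SD over arrays 0.24, against 0.18) and shared directions within pairs, so these rates need not hold for them. Alternatives were other scalings, a pseudocount of 32, other filters and probe sets, array weights, a replicate block and leaving out arrays. The other probe sets, the counts within pairs, the medians over the genes and the line contrast averaged over dox were added as alternatives after seeing the data.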

Additional observations from a re-analysis of the deposited data

Results flagged for a closer look

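Hk1 and Mxi1 were higher with dox in every knockdown pair and lower in every overexpression pair, which set them apart from the other 32 genes. Hk1 differed by 0.05, 0.06 and 0.07 in the knockdown pairs and by -0.11, -0.10 and -0.14 in the overexpression pairs. The knockdown effect minus the overexpression effect was 0.18 ± 0.12. Mxi1 differed by 0.22, 0.09 and 0.46, and by -0.01, -0.07 and -0.06, with a difference between the effects of 0.30 ± 0.17. The interaction term in limma called neither, at an adjusted p of 1.00 each. This pattern of signs held in 2 of 34 genes (5.88%), against 2.39% of all tested genes. Hk1 carries the doubt about its probe set given above.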

How the results depend on the processing

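The dox effects of both lines and their difference kept a count of 0 of 34 genes under every alternative run, leave-outs included. The labels do not say that a replicate number marks a shared culture. Over all tested genes, deviations of same-numbered arrays from their group means correlated at 0.60, 0.44 and 0.05 in the knockdown line. Each was the best match for its dox-treated array. On day 5 of the overexpression line they correlated at 0.79. Over the 34 genes alone the correlations were 0.70, 0.64 and 0.46 in the knockdown line and 0.66 on day 5. With the replicate block, the counts of the 3 dox contrasts were 0, 0 and 0. At an unadjusted p under 0.05 the block gave 2 of 34 genes in the knockdown line, against 12.2% of all, 1 in the overexpression line, against 3.59%, and 3 for the difference, against 8.68%. Those in the knockdown line were Vegfa (adjusted p = 0.242, limma), lower in every pair, and Mxi1 (adjusted p = 0.348), higher in every pair. The calls between replicates depended on the processing. For knockdown replicate 2 against 1 (3 called) the count was 7 with array medians subtracted, 5 with a pseudocount of 32, 5 with a filter at the 40th percentile, 5 with array weights, 1 with no filter and 0 with the line's arrays alone. For overexpression replicate 2 against 1 (3 called) it was 5 on the values as deposited, 9 with a pseudocount of 32, 9 with the 40th percentile, 15 with array weights, 6 with the line alone and 1 with no filter. The count for knockdown replicate 3 against 1 (0 called) was 1 with array medians subtracted, and array weights gave 7 for day 5 against day 4 and 1 between lines. Leaving out arrays gave 0 to 5, 0 to 8 and 0 to 1 for the 3 replicate contrasts and 0 to 3 for day. The shares of all tested genes called under each alternative are not given here. These counts thus show only that the calls depend on the processing, and are not a result about the 34 genes. In knockdown replicate 2, 5 genes were higher with dox on the values as deposited and 5 with array medians subtracted. Subtracting array medians also gave 18 in overexpression day 5 replicate 1, and 5 other Hif targets in the majority direction in all 6 pairs. This scaling moved the median of all genes to 0.25 in the pair of knockdown replicate 3. In that of overexpression day 5 replicate 1 it moved to -0.08. The shares of all genes that go with these counts on this scaling are not given here. In overexpression day 5 replicate 2, 1 gene was higher with the mean of the probe sets and 1 with the other probe sets. Of single genes, Higd1a's overexpression dox effect turned to -0.14 with the mean of the probe sets and -0.34 on its other probe set, Pfkp's to -0.10 with array weights, Bnip3's knockdown replicate 3 difference to 0.47 on its other probe set, and Egln3's difference between lines to 0.12 with dox-treated and untreated arrays averaged. Leaving out arrays turned uncalled differences within these ranges. For the knockdown dox effect they were -0.59 to 0.14 (Pfkp) and -0.66 to 0.12 (P4ha2). For the overexpression dox effect they were -0.13 to 0.28 (Pdk1), -0.057 to 0.16 (Higd1a), -0.20 to 0.21 (Pfkp) and -0.92 to 0.21 (Slc16a3). For the difference between lines they were -0.61 to 0.17 (P4ha2) and -0.64 to 0.10 (Pfkp). For day they were -1.02 to 0.17 (Slc16a3), and between lines -0.67 to 0.20 (Egln3). For knockdown replicate 2 they were -0.42 to 0.11 (Bhlhe40) and -0.74 to 0.025 (Pfkfb3), for replicate 3 they were -0.055 to 0.75 (Aldoc) and -0.56 to 0.052 (Bhlhe40), and for overexpression replicate 2 they were -0.021 to 0.63 (Pdk1). The causes were not tested, other than that leaving out arrays or genes changes the number that enter the fit. The number of arrays and signal near background, as for Car9, limit what can be seen.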

Other observations

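After quantile normalization, most respiratory chain genes were lower in replicates 2 and 3 than in replicate 1, but few were called. In overexpression replicate 2 against 1, 23 of 28 were lower, with a median of -0.13, where 50.3% of all genes were higher. Subtracting array medians moved the median of all genes in this contrast to 0.12. The respiratory chain genes were not counted again on that scaling, so this count may depend on it. Of the 28, 5 were called lower and 0 higher (17.9%), against 13.7% of all genes called. In knockdown replicate 2 against 1, 21 were lower, where 48.3% of all genes were higher, and 4 were called (14.3%), against 7.55% of all. In knockdown replicate 3 against 1, 26 were lower, where 52.8% of all genes were higher. There 0 were called, against 0.0188% of all, with 8 at an unadjusted p under 0.05 (28.6%), against 15.7%. Cox7a2, a subunit of cytochrome c oxidase, had the largest called difference in overexpression replicate 2, at -1.16 (adjusted p = 0.00130, limma), and was chosen after its values were seen. All 8 integrated stress response genes were lower with dox in all 3 knockdown pairs, against 12.2% of all tested genes, with medians of -0.29, -0.35 and -0.37. In the knockdown dox contrast, fitted with no account of replicate number, 0 were called, against 0.00627% of all genes. There 0 reached an unadjusted p under 0.05, against 3.76%.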
